A study of Mus musculus with 8 samples.

Results

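Interleukin-6 (IL-6) family cytokines and their receptors were followed in mouse pancreatic ductal adenocarcinoma (PDAC) cells as *Smad4* was switched and TGFβ signaling was activated or blocked. The set was chosen by gene name and held 9 genes of the 53465 in the count table: the ligands *Il11*, *Il6*, *Lif* and *Clcf1*, the shared receptor chain *Il6st*, the ligand-specific chains *Il11ra1*, *Lifr* and *Osmr*, and the feedback inhibitor *Socs3*. All 9 passed the filter on low counts, among 14301 tested genes. RNA was sequenced from 2 tumor-derived lines, B73 and B87, grown from primary pancreatic tumors of KC-shSmad4 mice. In these mice Ptf1a-Cre, which acts in the pancreas, turns on a doxycycline (Dox)-responsive rtTA3 activator with the mKate2 reporter, and Dox then drives a GFP-linked short hairpin RNA (shRNA) against *Smad4* from the *Col1a1* locus. All libraries came from this one model. Smad4-off cells stayed on Dox, and Smad4-on cells had been without Dox for 5 days. Each was treated for 24 h with 100 pM TGFβ1 or with 2.5 µM SB505124, which blocks the kinase of the TGFβ type I receptor. This gave 4 groups with 1 library per line. Each line is one tumor's culture, there was no vehicle group, and no control-hairpin cells were analysed here. The effect of *Smad4* and that of Dox withdrawal therefore cannot be told apart, nor can the effect of added TGFβ1 and that of the blocked receptor.

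As background, cytokines of this family signal through gp130, the protein encoded by *Il6st*. IL-11 first binds IL11RA, whereas LIF engages gp130 paired with the LIF receptor. CLCF1 acts on the same pair through CNTFR. Oncostatin M uses OSMR or LIFR beside gp130. The receptors activate JAK kinases and the transcription factor STAT3, and SOCS3, itself induced by STAT3, binds gp130 and limits the signal. In pancreatic cancer the family is best known for crosstalk between tumor cells and fibroblasts, in which LIF and IL-6 feed STAT3 signaling.

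Depth and cell identity were examined before the members. Library totals ran from 18389235 to 23440550 counts, so that 3 counts, taken as the smallest detectable level, stood for 0.125 to 0.162 CPM, a count relative to the total of its library. These floors cover counting error only. *Smad4*, the target of the hairpin, ranged from 33.7 to 35.5 CPM over the 4 Smad4-off libraries and from 97.4 to 117 CPM over the 4 Smad4-on libraries, without overlap. The epithelial keratins *Krt8*, *Krt18* and *Krt19* were abundant in every library, with at least 2994 counts each. *Epcam*, another epithelial marker, had only 3 to 39 counts. Summed over 5 epithelial markers, B73 libraries held 3294 to 5534 CPM and B87 libraries 1155 to 2049 CPM. Of 7 fibroblast markers, *Lum* was at 0 in all libraries and *Dcn* and *Thy1* never exceeded 3 counts, while *Col1a1*, which is also the locus of the hairpin cassette, and *Pdgfrb* were clearly higher in B87. *Col1a2*, which encodes the partner chain of collagen I, ran the other way, with 36 to 59 counts in B73 and 0 to 5 in B87. Of 6 leukocyte markers, *Cd68* alone exceeded 5 counts. The 4 endothelial markers summed to at most 26.1 CPM. In bulk RNA, fewer cells of a type and less RNA per cell cannot be told apart.

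Promoter windows of the ligands *Il11*, *Lif* and *Il6*, of the receptor gene *Lifr* and of *Socs3* are shown first, whether or not the gene was called, because TGFβ signals through SMAD factors and this family through STAT3. RefSeq starts on GRCm38.p6 were found for 8 of the 9 members, with 11 windows of 250 bases before a start, and *Clcf1* was not matched. Each line below gives a gene, its window and the sequence 5′ to 3′ on the strand of the gene. Capitals mark CAGAC (letters of a SMAD site, either strand), TGANTCA (the AP-1 site, either strand) and TTCNNNGAA (the STAT site), which have no overlaps in these windows.
*Il11*, distal start (chr7:4782858-4783107, minus strand): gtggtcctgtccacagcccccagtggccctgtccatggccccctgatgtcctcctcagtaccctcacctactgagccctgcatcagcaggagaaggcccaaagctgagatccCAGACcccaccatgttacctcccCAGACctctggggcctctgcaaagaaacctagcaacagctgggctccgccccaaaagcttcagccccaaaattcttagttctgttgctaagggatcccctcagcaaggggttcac
*Il11*, proximal start (chr7:4778142-4778391, minus strand): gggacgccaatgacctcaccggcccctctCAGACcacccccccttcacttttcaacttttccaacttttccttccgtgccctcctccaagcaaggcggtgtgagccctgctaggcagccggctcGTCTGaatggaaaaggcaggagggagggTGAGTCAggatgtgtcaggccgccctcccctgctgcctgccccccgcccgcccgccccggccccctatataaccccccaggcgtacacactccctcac
*Lif* (chr11:4257318-4257567, plus strand): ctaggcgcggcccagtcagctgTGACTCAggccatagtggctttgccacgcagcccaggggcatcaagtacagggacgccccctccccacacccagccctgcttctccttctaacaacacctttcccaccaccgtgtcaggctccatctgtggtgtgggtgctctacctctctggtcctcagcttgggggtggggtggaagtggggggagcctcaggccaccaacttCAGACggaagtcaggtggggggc
*Il6* (chr5:30012864-30013113, plus strand): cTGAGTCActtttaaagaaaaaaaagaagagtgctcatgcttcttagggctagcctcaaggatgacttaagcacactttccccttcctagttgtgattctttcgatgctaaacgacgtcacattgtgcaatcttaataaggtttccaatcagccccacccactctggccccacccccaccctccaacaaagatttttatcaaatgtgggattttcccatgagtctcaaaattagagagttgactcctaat
*Lifr*, upstream start (chr15:7129322-7129571, plus strand): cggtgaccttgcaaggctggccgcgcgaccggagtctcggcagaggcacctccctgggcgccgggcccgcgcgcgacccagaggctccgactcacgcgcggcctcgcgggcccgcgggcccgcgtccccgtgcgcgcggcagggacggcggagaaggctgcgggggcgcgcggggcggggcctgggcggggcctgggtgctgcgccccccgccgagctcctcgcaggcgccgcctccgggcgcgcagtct
*Lifr*, downstream start (chr15:7140292-7140541, plus strand): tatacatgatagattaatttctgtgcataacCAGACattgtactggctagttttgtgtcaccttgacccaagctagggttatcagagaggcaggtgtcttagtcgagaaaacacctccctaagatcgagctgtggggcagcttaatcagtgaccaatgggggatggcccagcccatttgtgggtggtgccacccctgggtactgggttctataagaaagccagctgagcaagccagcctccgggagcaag
*Socs3* (chr11:117969367-117969616, minus strand): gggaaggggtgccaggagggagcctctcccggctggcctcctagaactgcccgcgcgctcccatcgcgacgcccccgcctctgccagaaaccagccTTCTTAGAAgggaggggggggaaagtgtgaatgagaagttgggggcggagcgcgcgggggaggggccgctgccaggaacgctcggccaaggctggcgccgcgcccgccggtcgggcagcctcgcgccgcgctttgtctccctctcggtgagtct
The AP-1 letters stood in 3 of the 11 windows, those of *Il11* (98 to 92 bases before the proximal start), *Lif* (228 to 222) and *Il6* (249 to 243), against 6.75% of 32851 mouse promoter windows. These 3 genes encode ligands. The SMAD letters stood in 5 of the 11 windows against 42.2% of all windows, and both *Il11* windows held them in 2 places. The upstream *Lifr* window held none of the 3 motifs. The STAT letters stood in 1 window, that of *Socs3*, against 7.02% of all windows. These matches are letters in a window and do not show binding.

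**Figure D1:**
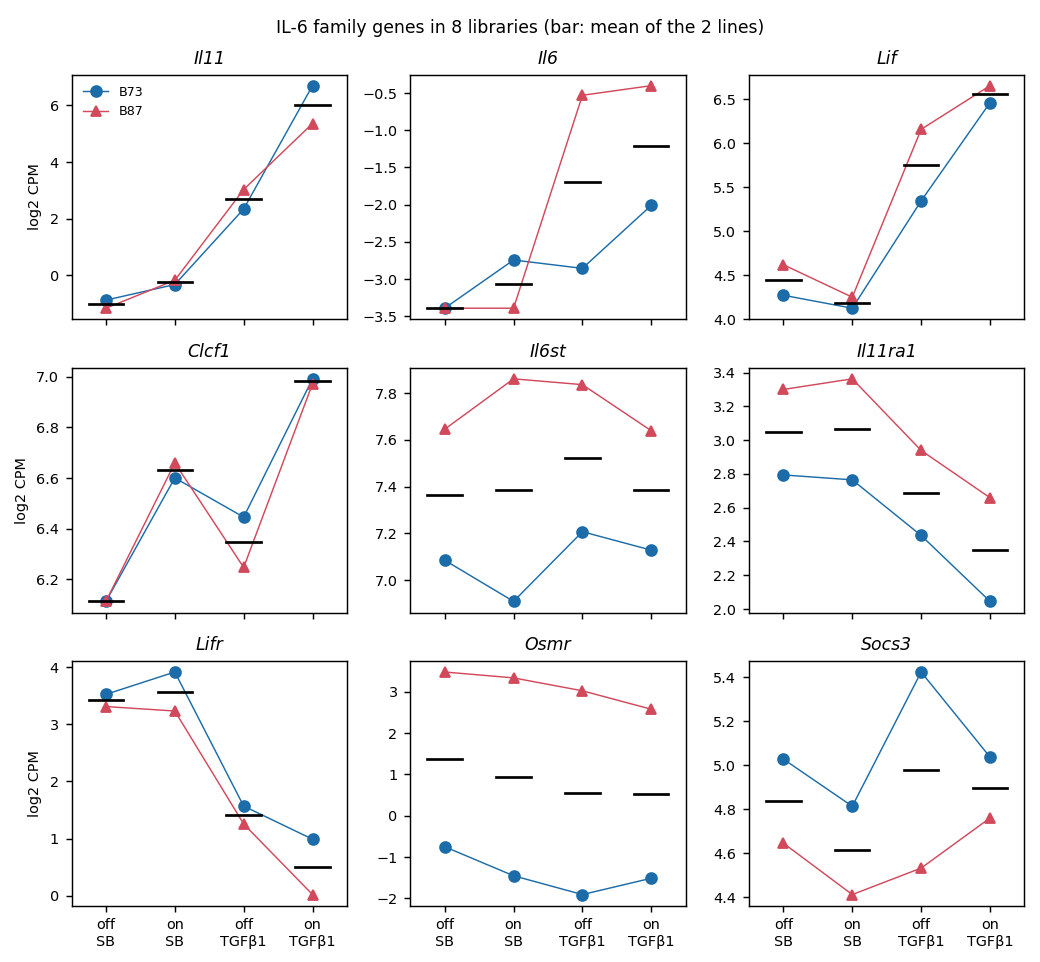
Level of each IL-6 family gene (y axis, log2 CPM with a prior count of 2, own scale per panel) in the 4 groups (x axis: Smad4 off or on, with SB505124 or TGFβ1). Circles are B73, triangles are B87 and black bars are the mean of the 2 lines. *Il11* and *Lif* climb with TGFβ1 in each line, *Lifr* drops, and *Osmr* separates the lines in all 4 groups.

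*Il11* showed the widest range of the family. It lies on chromosome 7 (4772373 to 4782857, minus strand) and encodes IL-11, a gp130 cytokine tied to fibrosis and epithelial tumors. In B73, its level was 0.449 CPM in Smad4-off and 0.702 CPM in Smad4-on cells under SB505124, and 4.97 and 104 CPM under TGFβ1. In B87, the corresponding levels were 0.351 and 0.790 CPM under SB505124, and 8.07 and 41.0 CPM under TGFβ1. The 2 libraries with both *Smad4* and TGFβ1 stood above the other 6, and all TGFβ1 libraries stood above all SB505124 libraries. In raw counts the extremes were 8 (B87, Smad4 off, SB505124) and 2031 (B73, Smad4 on, TGFβ1).

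With TGFβ1, restored *Smad4* went with 10.4-fold more *Il11*, or 3.37 ± 0.44 on the log2 scale (SE, with an edgeR adjusted p of 0.00815). The rise was 4.36 in B73 and 2.33 in B87 on the log2 scale. A call required more than a 2-fold change together with a Benjamini-Hochberg adjusted p below 0.05. *Il11* was the 1 member called in this comparison, against 3.12% of all tested genes (1.31% higher and 1.8% lower). Without the cell line in the model, that is with no replicate block, its log2 fold change was 3.47 and its edgeR adjusted p was 0.0735, the highest of 15 alternatives (lowest 5.73e-13). That fit called 0 members and 0.252% of all tested genes. DESeq2 with no replicate block kept the *Il11* call, against 1.83% of all tested genes. Under SB505124, the log2 value of *Il11* was 0.92 ± 0.89 (edgeR adjusted p = 0.737), on 8 to 19 counts per library.

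Under TGFβ1, *Il11* exceeded its SB505124 level in both *Smad4* states. In Smad4-on cells it was 90.1-fold higher with TGFβ1 than with SB505124 (log2 fold change 6.49 ± 0.55, edgeR adjusted p = 0.000334). In Smad4-off cells it was 16.5-fold higher (log2 fold change 4.04 ± 0.65, edgeR adjusted p = 0.0099). The second call was lost without the Smad4-off SB505124 library of B73 (adjusted p = 0.0545) or of B87 (adjusted p = 0.064, the highest of 15 alternatives, the lowest being 1.48e-11). A rise of *Il11* was thus measured with *Smad4* depleted too, where *Smad4* mRNA remained at the levels above. The 2 responses differed by a log2 value of 2.45 ± 1.08, which edgeR did not call (adjusted p = 0.497) and DESeq2 did (adjusted p = 0.0436, the lowest of 14 alternatives, which reached up to 1.0).

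The sum of the 7 fibroblast markers, though not each marker, rose in the same order as *Il11* in B87 and is therefore given here. That sum in B87 was 43.9, 152, 184 and 647 CPM in the order Smad4 off and on under SB505124, then off and on under TGFβ1. In B73, where *Il11* reached its highest level, the same 7 markers summed to 4.29, 4.0, 6.43 and 8.93 CPM. Most of the B87 sum was *Col1a1* (590 to 12305 counts) and *Pdgfrb* (291 to 653 counts), while *Lum*, *Dcn* and *Thy1* stayed at or under 3 counts. *Col1a1* in B87 followed the order of the sum, at 25.9, 119, 161 and 627 CPM. *Pdgfrb*, at 12.8, 27.2, 18.9 and 15.8 CPM, and *Pdgfra*, at 5.01, 6.41, 4.68 and 3.52 CPM, did not. *Col1a2* had at most 5 counts in B87. Of the 5 epithelial markers, TGFβ1 gave 0 higher and 2 lower in Smad4-on cells, *Cdh1* (log2 value -2.31 ± 0.46, edgeR adjusted p = 0.00936) and *Krt19* (-2.33 ± 0.22, 0.000454). In Smad4-off cells 1 was lower, *Krt19* (-1.46 ± 0.21, edgeR adjusted p = 0.0067), and with no replicate block 0 were called in either state. In the order used above, the 5 markers summed to 3427, 5534, 3294 and 5248 CPM in B73 and 2049, 1637, 1236 and 1155 CPM in B87. The part of either marker group in the *Il11* result was not tested.

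*Lif* also rose with TGFβ1, over a smaller range and from a much higher base. The gene (chromosome 11, 4257557 to 4272514, plus strand) encodes leukemia inhibitory factor. In B73, *Lif* was at 19.2 and 17.3 CPM in Smad4-off and Smad4-on cells under SB505124, and at 40.5 and 88.0 CPM under TGFβ1. In B87, it was at 24.5 and 18.9 CPM under SB505124, and at 71.3 and 101 CPM under TGFβ1. All TGFβ1 libraries exceeded all SB505124 libraries, and under TGFβ1 both Smad4-on libraries exceeded both Smad4-off libraries.

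TGFβ1 raised *Lif* 5.20-fold in Smad4-on cells (log2 fold change 2.38 ± 0.18, edgeR adjusted p = 0.000213) and 2.51-fold in Smad4-off cells (1.33 ± 0.17, edgeR adjusted p = 0.00457). The adjusted p in Smad4-off cells was 0.0815 with no replicate block, and it ranged from 1.9e-09 to that value over 16 alternatives. Between *Smad4* states under TGFβ1, *Lif* differed by a log2 value of 0.79 ± 0.16 (edgeR adjusted p = 0.0371), under the 2-fold rule. Under SB505124, the value was -0.26 ± 0.17 (adjusted p = 0.611). The difference of the 2 *Smad4* effects was 1.05 ± 0.24 with an edgeR adjusted p of 0.199, while DESeq2 (adjusted p = 0.0168) and edgeR with no filter on low counts (adjusted p = 0.00379) called it. The other alternatives did not, with adjusted p up to 1.0.

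*Il6* itself was barely detected. It lies on chromosome 5 (30013114 to 30019981, plus strand) and encodes the founding cytokine of the family. Counts in B73 were 0 and 1 under SB505124 and 1 and 3 under TGFβ1, Smad4 off before Smad4 on. Counts in B87 were 0 and 0 under SB505124 and 12 and 13 under TGFβ1. Counts above the 3-count floor were thus seen in the 2 TGFβ1 libraries of B87, through which *Il6* passed the filter, and in none of the other 6. Taking the SB505124 libraries at the floor, the average of both lines was at least 2.84-fold higher with TGFβ1 in Smad4-on cells and at least 2.28-fold higher in Smad4-off cells, a bound that B73 did not share. These differences were not called (edgeR adjusted p = 0.0612 and 0.091), although with no filter on low counts they were (0.0336 and 0.0396). Without the Smad4-on SB505124 library of B73, which held 1 count, the difference in Smad4-on cells was also called (adjusted p = 0.0433).

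*Clcf1* was the member whose *Smad4* difference appeared in both treatments, at less than 2-fold. The gene (chromosome 19, 4214238 to 4223490, plus strand) encodes cardiotrophin-like cytokine factor 1, a ligand of the CNTFR complex. In B73, *Clcf1* was at 69.1 and 96.9 CPM in Smad4-off and Smad4-on cells under SB505124, and at 87.1 and 127 CPM under TGFβ1. In B87, it was at 69.1 and 101 CPM under SB505124, and at 75.9 and 125 CPM under TGFβ1. Smad4-on libraries exceeded Smad4-off libraries of the same treatment in each line, without overlap. The log2 difference was 0.63 ± 0.09 under TGFβ1 (edgeR adjusted p = 0.00996) and 0.52 ± 0.09 under SB505124 (edgeR adjusted p = 0.0445). With no replicate block these adjusted p-values were 0.0738 and 0.302. Over 16 alternatives they ranged from 1.55e-06 to 0.101 and from 0.000448 to 0.302. Of the transcript stretches of 75 bases in *Clcf1*, 6.05% also occur in the overlapping gene AC109138.7, so its counts are slightly less certain.

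Under SB505124, 0 of the 9 members were called between *Smad4* states by edgeR or by DESeq2, against 1.09% of all tested genes (0.636% higher and 0.455% lower). At an unadjusted p under 0.05 the count was 1, which was *Clcf1*. The median log2 fold change of the 8 members other than *Il6* was 0.02, beside 0.00 over all tested genes. Under TGFβ1 these medians were -0.12 and -0.01. *Il6* was left out of the medians because its fitted values rest on libraries at or near 0.

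**Figure D2:**
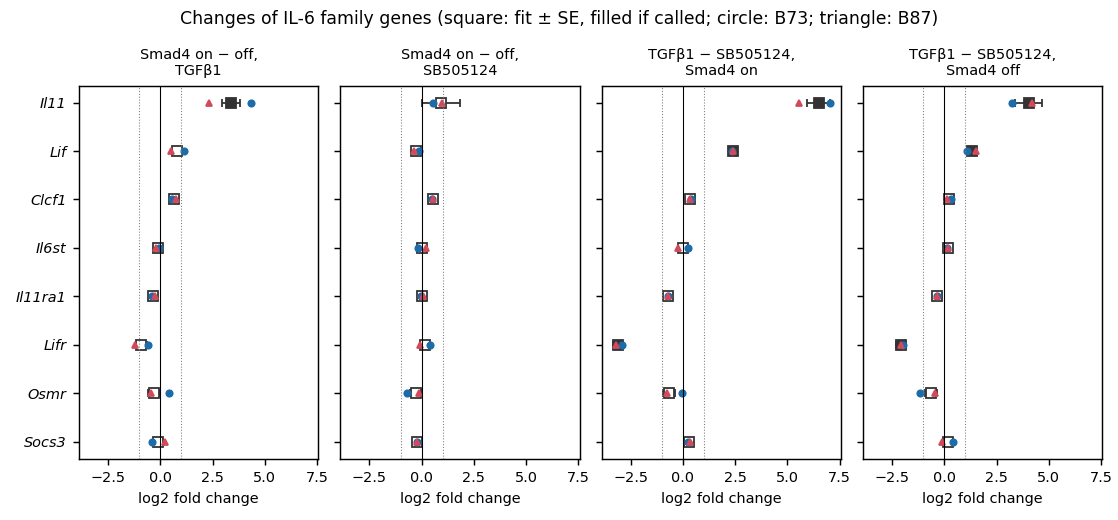
Log2 fold change (x axis) of 8 members (y axis) in the 4 comparisons. Squares are the edgeR fit over both lines with its SE, filled where the gene was called, small circles are B73 and triangles are B87; dotted lines mark 2-fold and *Il6* is omitted because libraries were at 0. *Il11* is called in 3 comparisons and *Lif* and *Lifr* in the TGFβ1 comparisons.

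The shared chain *Il6st* differed between the lines and was not called between conditions. The gene lies on chromosome 13 (112464070 to 112510086, plus strand). B73 libraries ranged from 120 to 148 CPM and B87 libraries from 199 to 232 CPM, so the lines did not overlap. The B87 level exceeded that of B73 by a log2 value of 0.66 ± 0.08 (edgeR adjusted p = 0.00222). In the 4 comparisons of *Smad4* and TGFβ1, its fitted log2 values lay between -0.14 and 0.16, with edgeR adjusted p-values from 0.429 to 0.963.

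*Lifr* fell with TGFβ1 in every pair of libraries, opposite to the gene for its ligand *Lif*. The receptor gene lies on chromosome 15 (7090614 to 7197489, plus strand). In B73, *Lifr* was at 11.4 and 15.0 CPM in Smad4-off and Smad4-on cells under SB505124, and at 2.87 and 1.89 CPM under TGFβ1. In B87, it was at 9.84 and 9.32 CPM under SB505124, and at 2.29 and 0.918 CPM under TGFβ1. The TGFβ1 and SB505124 libraries did not overlap, and the lowest count was 18.

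With TGFβ1, *Lifr* was 8.68-fold lower in Smad4-on cells (log2 fold change -3.12 ± 0.25, edgeR adjusted p = 0.000282) and 4.16-fold lower in Smad4-off cells (-2.06 ± 0.23, edgeR adjusted p = 0.00296). The second adjusted p was 0.0784 with no replicate block, and it ranged from 3.01e-08 to that value over 16 alternatives. Under TGFβ1, the *Smad4* difference was -0.91 ± 0.27 (edgeR adjusted p = 0.0983), with -0.58 in B73 and -1.24 in B87. The 2 TGFβ1 responses differed by -1.06 ± 0.34 (adjusted p = 0.319), so a difference between *Smad4* states was not shown for *Lifr*.

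*Il11ra1*, the IL-11 receptor gene (chromosome 4, 41699989 to 41769474, plus strand), was also lower with TGFβ1, by less than 2-fold. In B73, it was at 6.84 and 6.70 CPM in Smad4-off and Smad4-on cells under SB505124, and at 5.31 and 4.03 CPM under TGFβ1. In B87, it was at 9.75 and 10.2 CPM under SB505124, and at 7.57 and 6.22 CPM under TGFβ1. Within each line both TGFβ1 libraries lay under both SB505124 libraries. The log2 value was -0.72 ± 0.16 in Smad4-on cells (edgeR adjusted p = 0.0153, 0.23 with no replicate block, and 0.0121 to 0.27 over 16 alternatives) and -0.36 ± 0.16 in Smad4-off cells (edgeR adjusted p = 0.189). *Il11ra1* was higher in B87 by a log2 value of 0.56 ± 0.11 (edgeR adjusted p = 0.0162). Of its 75-base transcript stretches, 35.95% also occur in other genes, chiefly *Gm13305*. Reads from such stretches may have been assigned elsewhere or dropped, so the level of *Il11ra1* is uncertain.

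*Osmr*, which encodes the oncostatin M receptor, separated the lines in every condition. It lies on chromosome 15 (6813577 to 6874969, minus strand), 215.645 kb from *Lifr*. The 4 B73 libraries held 0.499 and 0.270 CPM under SB505124 and 0.171 and 0.255 CPM under TGFβ1, given for Smad4 off and then on. The 4 B87 libraries held 11.0 and 9.98 CPM under SB505124 and 8.02 and 5.86 CPM under TGFβ1. In counts this was 4 to 10 against 115 to 251, with no overlap. *Osmr* was 29.0-fold higher in B87 (log2 difference 4.86 ± 0.23, edgeR adjusted p = 4.88e-05), the 1 member called between the lines, against 8.37% of all tested genes. *Osmr* passed the filter on low counts through the B87 libraries, the side on which it was high, which limits what its adjusted p can show. With at least 10 counts required in every library, *Osmr* was not tested. In the 4 comparisons of conditions its adjusted p-values were 0.132 to 0.74. *Osm*, which encodes the ligand oncostatin M, had 0 counts in all 8 libraries.

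The 5 other tested genes around *Osmr* were not shifted alike between the lines. Within 500 kb, *Rictor*, a subunit gene of mTOR complex 2, had a log2 difference of -0.01 ± 0.07 (edgeR adjusted p = 0.921) and *Lifr* one of -0.52 ± 0.17 (adjusted p = 0.0769). *Dab2*, which encodes an endocytic adaptor, was higher in B87 by 1.08 ± 0.15 (edgeR adjusted p = 0.00365). *C9*, a complement gene, was lower in B87 (-2.15 ± 0.39, edgeR adjusted p = 0.0153). The predicted gene *Gm7666*, on 5 to 24 counts, had a log2 difference of 0.35 ± 0.41 (edgeR adjusted p = 0.614). The fibroblast marker sums, 4.0 to 8.93 CPM in B73 and 43.9 to 647 CPM in B87, and the epithelial sums given above also differed between the lines. Their part in the *Osmr* difference was not tested.

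**Figure D3:**
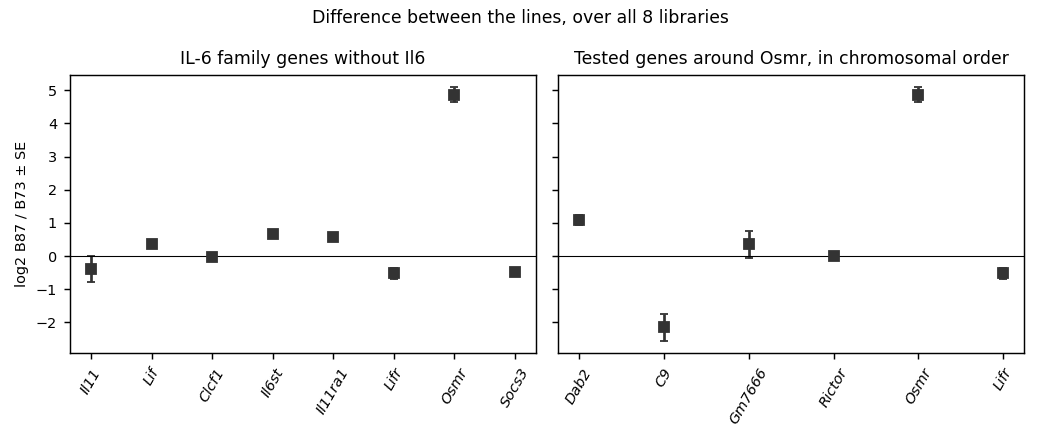
Log2 difference of B87 from B73 with its SE (y axis) over all 8 libraries, for 8 members without *Il6* (left) and for the tested genes around *Osmr* in chromosomal order (right, spacing not to scale). *Osmr* stands at 4.86, and *Rictor* beside it at -0.01.

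*Socs3*, the gp130 inhibitor gene and a STAT3 target, was not called in any of the comparisons run. It lies on chromosome 11 (117966079 to 117970047, minus strand). In B73, it was at 32.5 and 28.0 CPM in Smad4-off and Smad4-on cells under SB505124, and at 42.9 and 32.8 CPM under TGFβ1. In B87, it was at 24.95 and 21.2 CPM under SB505124, and at 23.1 and 27.0 CPM under TGFβ1. The Smad4 groups overlapped under TGFβ1, where *Socs3* was lower with *Smad4* in B73 (-0.39) and higher in B87 (0.23) on the log2 scale. The fitted difference was -0.10 ± 0.16 (edgeR adjusted p = 0.762). With TGFβ1 against SB505124 the values were 0.29 ± 0.16 in Smad4-on cells (adjusted p = 0.21) and 0.16 ± 0.16 in Smad4-off cells (adjusted p = 0.56). B87 held less *Socs3* than B73 (log2 difference -0.49 ± 0.11, edgeR adjusted p = 0.0255). An approximate range of 2 SE around each of the 4 values lay within a 2-fold change in either direction.

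Across the family, TGFβ1 against SB505124 gave 3 called members in Smad4-on cells, *Il11* and *Lif* higher and *Lifr* lower, against 13.9% of all tested genes (5.62% higher and 8.31% lower). The same 3 members were called in Smad4-off cells, against 5.93% of all tested genes (3.11% higher and 2.82% lower). With no replicate block edgeR called 1 of the 3, *Il11*, in Smad4-off cells, against 1.17% of all tested genes. DESeq2 with no replicate block kept all 3 there, against 3.33%. The medians of the 8 members other than *Il6* were 0.14 and 0.16 on the log2 scale, beside -0.02 over all tested genes in each comparison. For the difference between the 2 *Smad4* effects edgeR called 0 members, against 0.189% of all tested genes. There, 2 members had an unadjusted p under 0.05 in edgeR. DESeq2 called 2, *Il11* and *Lif*, against 0.937% of all tested genes. The comparisons share libraries, so their values are not independent of one another.

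Compared per length, the order of the members changed with the conditions. In Smad4-off cells under SB505124, the level per kb of exon was 18.2 ± 0.00184 CPM for *Clcf1*, 15.1 ± 4.11 for *Il6st*, 9.94 ± 1.86 for *Socs3* and 5.02 ± 0.854 for *Lif* (SD, n = 2). *Il11ra1* followed at 1.86 ± 0.461 CPM per kb, then *Lifr* at 0.987 ± 0.104, *Osmr* at 0.476 ± 0.615, *Il11* at 0.192 ± 0.0332 and *Il6* at 0. *Clcf1* and *Il6st*, and *Lifr*, *Osmr* and *Il11* around the wide *Osmr* spread, were neighbors within their SD. In Smad4-on cells under TGFβ1, the mean of *Il11* stood first at 34.8 ± 21.3 CPM per kb, and its wide SD reached *Clcf1* at 33.2 ± 0.318, *Lif* at 21.7 ± 2.06 and *Il6st* at 15.3 ± 3.79. *Socs3* was at 10.3 ± 1.40 and *Il11ra1* at 1.15 ± 0.346 CPM per kb. *Osmr* (0.253 ± 0.327), *Il6* (0.168 ± 0.148) and *Lifr* (0.130 ± 0.0637) were last and within each other's SD. With the longest transcript as the length, the means of *Lifr* and *Osmr* over all libraries changed places.

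Within lines, *Il11* and *Lif* varied together over the 8 libraries, with r = 0.966 after the line means were removed. *Lifr* ran opposite to *Il11* (r = -0.946) and to *Lif* (r = -0.971), and with *Il11ra1* (r = 0.966). *Il11ra1* also ran opposite to *Il11* (r = -0.987) and to *Lif* (r = -0.987). These 8 libraries are 4 conditions in 2 lines, so such values describe a shared response to the conditions. By the same measure over 11099 other genes, the genes most like *Il11* were *Sec24b* (r = 0.999), *Tnc* (0.998) and *Senp5* (0.997). *Tnc* encodes the matrix protein tenascin C. The genes most like *Lif* were *Tead1* (r = 0.997), *Pvr* (0.996) and *Camsap2* (0.996), and those most like *Clcf1* were *Mlf2* (0.987), *Slc6a8* (0.987) and *Tnpo3* (0.986). For *Il6*, on its few counts, they were *Slc30a7* (0.991), *Fbxw9* (0.983) and *Baz2a* (0.982).

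The response of *Il11* to *Smad4* was also compared between the lines. A model was fitted that adds line-specific terms for TGFβ1 and for *Smad4*, each taken as equal over the other factor. By the *Smad4* term, the effect on *Il11* was smaller in B87 than in B73 (log2 difference -1.84 ± 0.28, edgeR adjusted p = 0.00083). The rise was 4.36 in B73 and 2.33 in B87 under TGFβ1, but 0.55 and 0.99 under SB505124, on few counts. *Il11* was the 1 member called for this term, against 2.59% of all tested genes, in a fit with 1 residual degree of freedom. DESeq2 gave -0.94 with an adjusted p of 1.0 and called 0 members. For the line difference in the TGFβ1 response both tools called 0 members, against 1.1% of all tested genes, and 0 had an unadjusted p under 0.05. The lines differed in the Smad4-off TGFβ1 group too, where B87 held more *Il11* (0.69 on the log2 scale) and in the Smad4-on TGFβ1 group less (-1.34).

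Other parts of the pathway were counted from lists of known components, and their counts are read against the shares of all tested genes called. These shares were 3.12% for *Smad4* under TGFβ1, 1.09% under SB505124, 13.9% for TGFβ1 with *Smad4* on and 5.93% with it off. In edgeR without the line in the model, with no replicate block, they were 0.252%, 0.014%, 7.24% and 1.17%. Counts with no replicate block given below are those of edgeR. Of 13 other ligands and receptors of the family, 9 did not pass the filter. *Cntf*, *Cntfr*, *Osm*, *Il31*, *Il27*, *Ebi3*, *Ctf2*, *Il11ra2* and *Il31ra* had at most 10 counts in any library.

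Of 12 signal transducers (JAK kinases, STAT factors and adaptors), 0 were called between *Smad4* states by either tool, with 6 at an unadjusted p under 0.05 under TGFβ1 and 0 under SB505124. In Smad4-on cells 1 was called with TGFβ1, *Stat5a*, with a log2 value of -1.05 ± 0.12 (edgeR adjusted p = 0.00117). Without the Smad4-on SB505124 library of B87 its fall was just under 2-fold, at -0.996. *Stat5a* was at 20.3 and 23.3 CPM under SB505124 and at 9.95 and 11.1 CPM under TGFβ1 in these cells, B73 before B87. In Smad4-off cells 0 were called by either tool, and 6 had an unadjusted p under 0.05. These counts were the same with no replicate block. The median of the 12 was -0.30 with *Smad4* on and -0.22 with it off, against -0.02 for all genes. *Stat3*, named after its values were seen, was not called and ran the other way in Smad4-on cells. There it was at 61.1 and 80.4 CPM under SB505124 and at 82.7 and 112 CPM under TGFβ1, B73 before B87.

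Of 10 further inhibitors, 2 were called under TGFβ1 between *Smad4* states (1 higher and 1 lower), and 1 higher under SB505124, which DESeq2 did not call. The gene higher in both was *Ptprt*, a receptor phosphatase gene named after its values were seen. It had at most 2 counts in the Smad4-off libraries and passed the filter through the Smad4-on libraries, which held 48 and 20 counts in B73 and 7 and 6 in B87, SB505124 before TGFβ1. Taking the Smad4-off libraries at the 3-count floor, its mean was at least 4.77-fold higher with *Smad4* under TGFβ1 and at least 10.2-fold higher under SB505124. B73 carried most of these means, with 1.02 and 2.59 CPM in this order, beside 0.306 and 0.291 CPM in B87. The edgeR adjusted p-values were 0.0365 and 0.0322. The filter was passed through the side on which *Ptprt* was high, which limits what these can show. Both calls were lost with no replicate block (0.424 and 0.847), and the calls under TGFβ1 and SB505124 were also lost in 5 and 6 of the fits that left out 1 library. With TGFβ1 against SB505124, 1 was called higher and 2 lower in Smad4-on cells, and 1 higher in Smad4-off cells. With no replicate block 2 of the 10 were called for TGFβ1 in Smad4-on cells and 0 in the other 3 comparisons. *Cish*, a STAT5-induced SOCS family gene, rose by 2.37 ± 0.37 in Smad4-on cells (edgeR adjusted p = 0.00365). B73 held 2.22 CPM with SB505124 and 13.3 CPM with TGFβ1, and B87 held 1.79 and 7.49 CPM. *Pias3*, which encodes an inhibitor of STAT3, was lower there (log2 value -1.30 ± 0.17, edgeR adjusted p = 0.00164). *Ptpn6*, which encodes the phosphatase SHP-1, was lower there too (log2 value -2.56 ± 0.38, edgeR adjusted p = 0.00292, and 0.106 with no replicate block). *Ptpn6* was also lower with *Smad4* under TGFβ1 (-1.88 ± 0.39, edgeR adjusted p = 0.0371), a call lost with no replicate block (0.462) and without any 1 of the 4 TGFβ1 libraries (0.0961 to 0.188). *Socs2* rose in Smad4-off cells by 1.24 ± 0.17 (edgeR adjusted p = 0.00538), a call lost with no replicate block (0.234) and without the Smad4-off TGFβ1 library of B87 (0.056).

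Known STAT3 response genes moved in both directions. Of 30 listed, 19 were tested, and the acute-phase genes *Saa1*, *Saa2*, *Saa3*, *Hp*, *Lcn2*, *Lrg1*, *Fga*, *Fgb*, *Fgg*, *Reg3b* and *Reg3g* had at most 7 counts in any library. Under TGFβ1, 2 were called higher and 4 lower with *Smad4*. Under SB505124, edgeR called 0, with 6 at an unadjusted p under 0.05 and 1 called by DESeq2. With TGFβ1 against SB505124, 4 were called higher and 5 lower in Smad4-on cells, and 2 higher and 1 lower in Smad4-off cells. With no replicate block 2, 0, 7 and 1 of the 19 were called over the 4 comparisons. The medians were 0.16, 0.02, 0.09 and 0.04 in this order, beside medians of -0.02 to 0.00 for all genes.

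*Junb*, which encodes an AP-1 subunit, was 9.16-fold higher with TGFβ1 than with SB505124 where *Smad4* was on (edgeR adjusted p = 5.78e-05). Where *Smad4* was off, *Junb* was 7.04-fold higher (edgeR adjusted p = 0.000338). *Vegfa*, the angiogenic factor, was at 62.4 and 57.9 CPM under SB505124 and at 310 and 250 CPM under TGFβ1 in Smad4-on cells, B73 before B87. It was higher with *Smad4* under TGFβ1 by 1.21 ± 0.09 (edgeR adjusted p = 0.0014). Its *Smad4* effect differed between treatments by 1.38 ± 0.13 (edgeR adjusted p = 0.0206), a call lost with no replicate block (0.392) and in 7 of the 8 fits without 1 library (0.0533 to 0.17), all but that without the Smad4-on TGFβ1 library of B87. *Lbp*, which encodes lipopolysaccharide-binding protein, dropped to 1 and 2 counts in the Smad4-on TGFβ1 libraries. Against the 3-count floor its group mean was at least 17.1-fold lower than in Smad4-off cells under TGFβ1 (edgeR adjusted p = 0.00779, and 0.0578 without the Smad4-on TGFβ1 library of B73). *Icam1*, an adhesion molecule gene, and *Muc1*, a mucin gene, were lower with *Smad4* under TGFβ1 by -2.52 ± 0.41 and -2.33 ± 0.37 (edgeR adjusted p = 0.0167 and 0.0157). Both calls were lost with no replicate block (0.218 and 0.641). The *Icam1* call was also lost without either B87 TGFβ1 library (0.0622 and 0.069), and the *Muc1* call without either Smad4-on TGFβ1 library (0.0924 and 0.0686).

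The remaining called STAT3 response genes are named here after their values were seen. *Fos*, another AP-1 subunit gene, was higher with *Smad4* under TGFβ1 (1.85 ± 0.42, edgeR adjusted p = 0.0481), a call lost in 10 of 16 alternatives, with adjusted p of 0.185 with no replicate block and up to 0.337 without the Smad4-off TGFβ1 library of B73. *Bcl3*, an NF-κB cofactor gene, was lower there (-1.26 ± 0.17, edgeR adjusted p = 0.00943), a call lost with no replicate block (0.178) and without the Smad4-off TGFβ1 library of B73 (0.0578) or of B87 (0.0713). With TGFβ1 in Smad4-on cells, the kinase gene *Pim1* (1.604 ± 0.15) and the protease inhibitor gene *Timp1* (1.96 ± 0.19) were higher, and *Bcl3* (-1.53 ± 0.17) and the acute-phase regulator *Cebpb* (-1.25 ± 0.16) were lower, all with edgeR adjusted p of at most 0.00164 and called in each of 16 alternatives. *Cebpd*, another acute-phase regulator, was lower there (-1.05 ± 0.22, edgeR adjusted p = 0.012), a call lost with no replicate block (0.342) and without the Smad4-on TGFβ1 library of B73 (0.0608), that of B87 (0.051) or the Smad4-on SB505124 library of B87 (0.111). In Smad4-off cells *Timp1* was higher (1.12 ± 0.19, edgeR adjusted p = 0.0118), a call lost with no replicate block (0.29) and without the Smad4-off TGFβ1 library of B73 (0.0623), that of B87 (0.0888) or the Smad4-off SB505124 library of B87 (0.0882). *Cebpd* was lower there (-1.10 ± 0.23, edgeR adjusted p = 0.0238), a call lost with no replicate block (0.493) and without any 1 of the 4 Smad4-off libraries (0.0567 to 0.21).

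**Figure D4:**
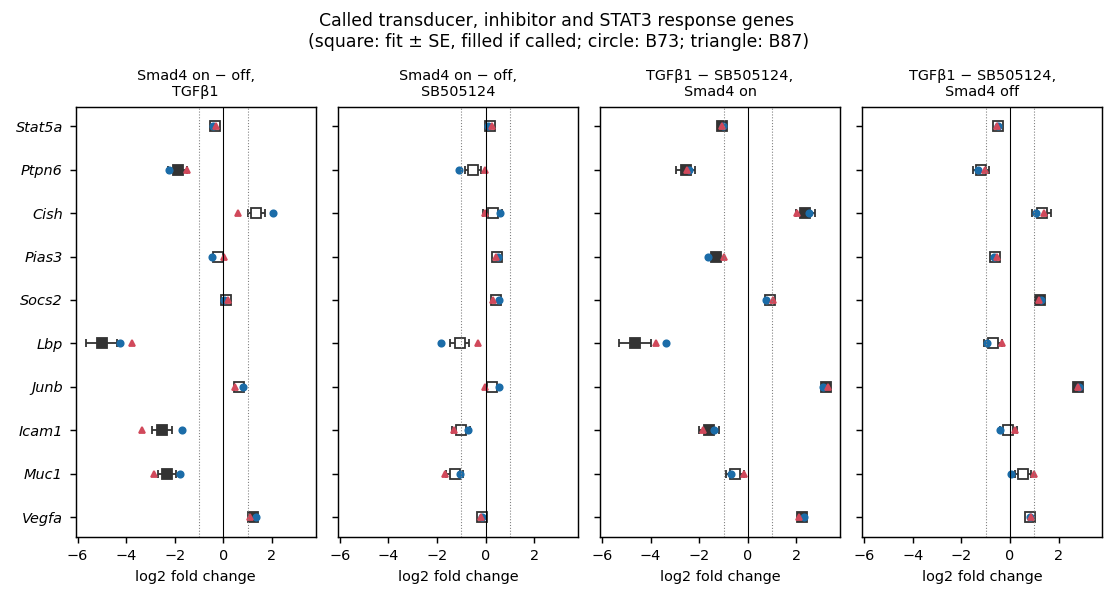
Log2 fold change (x axis) of the named transducer, inhibitor and STAT3 response genes (y axis) in the 4 comparisons. Squares are the edgeR fit with its SE, filled where called, small circles are B73 and triangles are B87, and dotted lines mark 2-fold. *Junb* is called higher with TGFβ1 in both *Smad4* states, and *Lbp* lies farthest to the left with fitted values that rest on 1 and 2 counts.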

How the data were processed

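The authors sequenced stranded poly(A) libraries, aligned reads to GRCm38 with STAR 2.5.3a after Trimmomatic 0.36 and counted them per gene with featureCounts 1.6.3 (FastQC 0.11.5 is also listed in the submitters' processing notes). The deposited table holds raw counts, 1 column per library. How featureCounts treated strand and multi-mapping reads is not given in the sources used here. Groups and lines came from the sample titles.

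Counts were tested with edgeR 4.0.16 in R 4.3.3 (TMM, filterByExpr, quasi-likelihood F-test) in one model of 4 groups and the line, with Benjamini-Hochberg adjustment over 14301 genes. The study used DESeq2 and its methods name no covariate. DESeq2 1.42.0 and a fit with no replicate block were therefore alternatives, beside other filters, size factors and left-out libraries. Lines pair the libraries: how a line deviated from the mean of a group correlated with how it deviated in each other group (r = 0.642 to 0.774, median 0.758, 6 pairs). SE is the log2 fold change over the square root of F. CPM are TMM-scaled, and log2 CPM used a prior count of 2. Values per line and p-values rest on 1 culture per line and condition. The members and lists were chosen with earlier results of these data known. Named beyond the members were called list genes of at least 1 CPM, up to 5 per list by largest change, the tested neighbors of *Osmr*, and the 3 genes most like each ligand (mean log2 CPM of at least 1). *Ptprt*, *Stat3*, *Fos*, *Bcl3*, *Pim1*, *Timp1*, *Cebpb* and *Cebpd* were named outside this rule, after their values were seen. Lengths came from GENCODE M21 and promoter windows from RefSeq. Scripts were tested on simulated data. Of the other family genes listed, 1 is not reported here.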

Additional observations from a re-analysis of the deposited data

Results flagged for a closer look

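The *Smad4* effect on *Il11* differed between the lines by a tested term: it was lower in B87 than in B73 (log2 difference -1.84 ± 0.28, edgeR adjusted p = 0.00083). Under TGFβ1, the rise with *Smad4* was 4.36 in B73 and 2.33 in B87, and under SB505124 it was 0.55 and 0.99 on 8 to 19 counts. The fit has 1 residual degree of freedom and takes most of its estimate of the spread from other genes, and DESeq2 gave -0.94 with an adjusted p of 1.0. With each line as 1 culture per condition, a difference between lines and one between single cultures cannot be told apart.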

How the results depend on the processing

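The 9 calls of members kept their direction in all 139 alternative values. In edgeR with no replicate block, members called fell to 0 for *Smad4* under TGFβ1 (beside 0.252% of all tested genes) and to 1 for TGFβ1 with Smad4 off (1.17%). The block changed no other edgeR call of a member. DESeq2 with no replicate block kept the calls of *Il11* in the first comparison (1.83%) and of *Il11*, *Lif* and *Lifr* in the second (3.33%). With at least 10 counts in every library, which left out *Il11*, *Il6* and *Osmr*, 0 members were called for *Smad4* under TGFβ1, for B87 against B73 and for the line difference of the *Smad4* effect. With no fold rule the counts were 3 for *Smad4* under TGFβ1 (beside 6.8% of all tested genes), 1 under SB505124 (1.59%), 5 for TGFβ1 with Smad4 on (33.2%), 4 for B87 against B73 (18.6%) and 2 for the line difference of the *Smad4* effect (7.4%). For the interaction, DESeq2 called 2 members (beside 0.937% of all tested genes) and no filter on low counts gave 1 (1.02%). For the line difference of the *Smad4* effect DESeq2 called 0 (0.804%). Leaving out 1 library gave 1 to 2 members for *Smad4* under TGFβ1 (the second was *Lif*, without the Smad4-off TGFβ1 library of B87) and 3 to 4 for TGFβ1 with Smad4 on (the fourth was *Il6*, without the Smad4-on SB505124 library of B73). The cause was not tested.

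Values that changed sign were all of uncalled results near 0 or of few counts, except *Il11* for B87 against B73. DESeq2 and its size factors gave 0.00188 and 0.00194 for *Il6st* (TGFβ1, Smad4 on), and for the *Osmr* interaction they gave 0.14 and 0.0025. DESeq2 gave -0.0692 for the line difference of the *Smad4* effect on *Osmr*. Leaving out 1 library or line gave these log2 ranges for *Smad4* under TGFβ1: *Il6* -0.0238 to 2.14, *Osmr* -0.45 to 0.40 and *Socs3* -0.39 to 0.23. Under SB505124 they were *Il6* -0.73 to 5.22, *Il6st* -0.18 to 0.22, *Il11ra1* -0.0291 to 0.0629 and *Lifr* -0.078 to 0.39. For TGFβ1 they were *Il6st* -0.22 to 0.22 (Smad4 on) and *Socs3* -0.13 to 0.43 (Smad4 off). For the interaction they were *Il6* -4.78 to 1.17, *Clcf1* -0.00041 to 0.22, *Il6st* -0.41 to 0.10, *Osmr* -0.30 to 1.10 and *Socs3* -0.17 to 0.46. For B87 against B73 they were *Il11* -0.97 to 0.46 and *Clcf1* -0.0631 to 0.0216. There *Il11* was at -0.39 ± 0.38 in the main fit. It turned to 0.42 without the Smad4-on TGFβ1 library of B73 (2031 counts) and to 0.46 without that of B87 (804 counts). In the models with line-specific terms no library could be left out, since no residual degrees of freedom remain. Depth limited *Il6*, and *Il11* and *Osmr* where they had under 20 counts.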
